A study of Mus musculus with 6 samples.

Results

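Sesn2 and 9 further genes of the integrated stress response (Trib3, Ddit3, Ddit4, Atf3, Atf4, Chac1, Asns, Ppp1r15a and Slc7a11) were followed in primary mouse microglial cultures that lacked the adaptor Dap12 and in wild-type cultures. Microglia are the macrophages that reside in the brain, and Dap12, encoded by Tyrobp, is the signalling adaptor of receptors such as Trem2. The genes were chosen by name, with the signals of these arrays already known, so that the difference between the groups was among the values that selected them. Their differences are therefore given as a description, without a test of their own. All probe sets annotated with exactly 1 gene symbol and naming a member were taken, which gave 17 probe sets of 10 genes among 18193 genes named in this way. The groups were 3 Dap12-deficient cultures, labelled Dap12-ko, and 3 wild-type cultures, labelled wt, with 1 single-colour oligonucleotide array per sample. The sample titles end in a double number for 2 samples of each group and in a single one for the third, with no meaning given, so whether a sample is 1 culture or a pool is not known, and each is called a culture here. No treatment is named for either group. The labels name neither the knockout allele nor the strain, age or sex of the mice, and they do not say that cultures were taken from separate mice. SDs and p-values therefore measure the spread between these cultures, which may be technical.

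The integrated stress response begins when a kinase such as PERK, GCN2, PKR or HRI phosphorylates the translation initiation factor eIF2. General protein synthesis then slows, while the mRNA of the transcription factor ATF4 is translated more, so the level of Atf4 mRNA is no measure of ATF4 protein. ATF4, partly with its partners CHOP (Ddit3) and ATF3, drives genes that make and import amino acids (Asns, Slc7a11), handle glutathione (Chac1), slow the growth kinase complex mTORC1 (Sesn2, Ddit4) and end the response (Trib3, Ppp1r15a). In macrophages and microglia the same pathway answers to amino acid shortage, oxidants and unfolded protein in the endoplasmic reticulum.

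ATF4 with a C/EBP partner binds a composite element whose core reads TGATGNAA, where N is any base. The core was searched on both strands of the promoter windows, which ran from 250 bases before to 50 bases after the transcript start annotated by RefSeq (GRCm38.p6). Windows of all 10 genes were found, and 5 of them held the core, against 4.51% of the 27025 genes with a window. Among the related lists described below, the share ran from 0% for mTORC1 sensing, NRF2 and hypoxia genes to 35.7% for aminoacyl-tRNA synthetases. The share was 22.7% for other ATF4 and CHOP targets, 18.75% for amino acid synthesis, 15.4% for transporters and 4.17% to 11.8% for the remaining lists. The stretches around the matches in the 5 windows of members are shown because elements of this form are known to link such genes to ATF4. They are printed 5′ to 3′ along the gene's strand with the core in capitals, and a core on the opposite strand appears as TTNCATCA.
Atf3 (chr1:191183410-191183469, minus strand): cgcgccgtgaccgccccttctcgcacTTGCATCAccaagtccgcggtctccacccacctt
Trib3 (chr2:152344028-152344057, minus strand): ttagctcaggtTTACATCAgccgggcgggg
Asns (chr6:7693210-7693258, minus strand): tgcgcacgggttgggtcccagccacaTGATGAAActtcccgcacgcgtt
Slc7a11 (chr3:50443627-50443705, minus strand): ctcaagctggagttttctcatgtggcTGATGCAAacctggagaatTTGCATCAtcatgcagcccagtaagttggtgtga
Chac1 (chr2:119351023-119351082, plus strand): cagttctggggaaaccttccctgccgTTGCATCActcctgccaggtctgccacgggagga
The core began at base -193 in Chac1, -110 in Atf3, -66 and -47 in Slc7a11, -23 in Asns and 15 bases into the transcript in Trib3. The Slc7a11 window held 2 cores that faced each other, and the other 4 windows held 1 each. These letters were not found in the windows of Sesn2, Ddit4, Ddit3, Atf4 and Ppp1r15a. A match describes the letters of a window and is not a measured binding site. Bases outside the windows were not searched, so a window without a match does not mean that a gene lacks such an element.

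**Figure D1:**
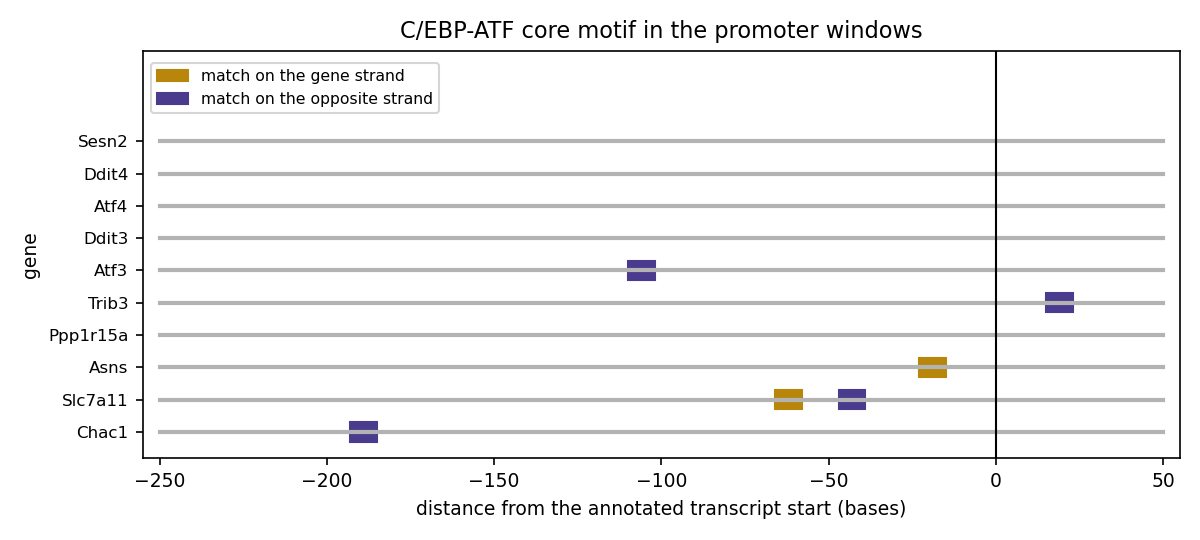
Position of the core TGATGNAA in the promoter windows of the 10 genes. The x axis is the distance from the annotated transcript start in bases, each grey line is 1 gene's window of 250 bases before to 50 after the start, and coloured boxes are matches on the gene's strand or the opposite strand. Matches lie in 5 windows, from base -193 in Chac1 to base 15 in Trib3.

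As a check of the labels, Tyrobp had signals of 125, 96.4 and 96.2 on Dap12-deficient arrays 1, 2 and 3, against 5584, 7271 and 5396 on wild-type arrays 1, 2 and 3. Median signals of the arrays lay between 14.6 and 16.5 in Dap12-deficient and between 11.9 and 14.0 in wild-type cultures. Of 27022 probe sets tested, 2 passed limma's adjusted p of 0.05 (Benjamini-Hochberg), both lower in Dap12-deficient cultures, which is 0.0074% of them. Of the microglia and macrophage markers 11 of 12 were measured, 10 with a lower and 1 with a higher mean in Dap12-deficient cultures, and their summed signal was 22627 to 30780 against 25360 to 35868 in wild-type. Summed signals of oligodendrocyte markers (9 of 10 measured) were 3610 to 8030 against 7109 to 10288, and 2 of the 9 had a higher mean in Dap12-deficient cultures, 7 a lower one. Those of 8 astrocyte markers were 451 to 1408 against 505 to 939.7, with 7 higher and 1 lower. Neuron markers (8 of 8) summed to 311 to 426 in Dap12-deficient and 419.9 to 526 in wild-type cultures, fibroblast markers (7 of 7) to 130.2 to 188 and 111 to 213, and endothelial markers (6 of 6, of which 4 lay under the filter on dim probe sets) to 60.4 to 93.1 and 64.7 to 99.2. Y-linked genes (3 of 4 measured) summed to 88.4 to 234 in Dap12-deficient and 708 to 781 in wild-type cultures, without overlap. No marker was at 0 on any array, and the part of these differences in the values below was not tested. The sex term described further on cannot test it, because the Y-linked signals do not overlap between the groups.

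Across the 10 genes the signals were mostly higher in Dap12-deficient cultures, by amounts that differed from gene to gene and between probe sets of 1 gene. Of the 17 probe sets, 16 had a mean signal over 6 arrays that passed the filter on dim probe sets, and 15 of these 16 had a log2 difference above 0. All differences are Dap12-deficient minus wild-type, on the scale of log2(signal + 16), which understates those of dim genes. The median over the 16 probe sets was 0.58, against 0.03 over all tested probe sets. Taking 1 probe set per gene, the one with the highest mean signal, 9 of 10 differences were above 0 with a median of 0.33, against -0.03 over 12875 genes. Of the 16 probe sets, 0 passed limma's adjusted p of 0.05. At an unadjusted p under 0.05 there were 9 higher and 0 lower, beside 7.05% higher and 3.61% lower of all tested probe sets. In 8 of the 16 every Dap12-deficient array lay above every wild-type array, and in 0 below, beside 9.6% and 6.89% of all tested probe sets. As these counts use the contrast that was known when the genes were chosen, nothing is read from them. In whole cultures, a change in the share of a cell type and a change of RNA per cell cannot be told apart.

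**Figure D2:**
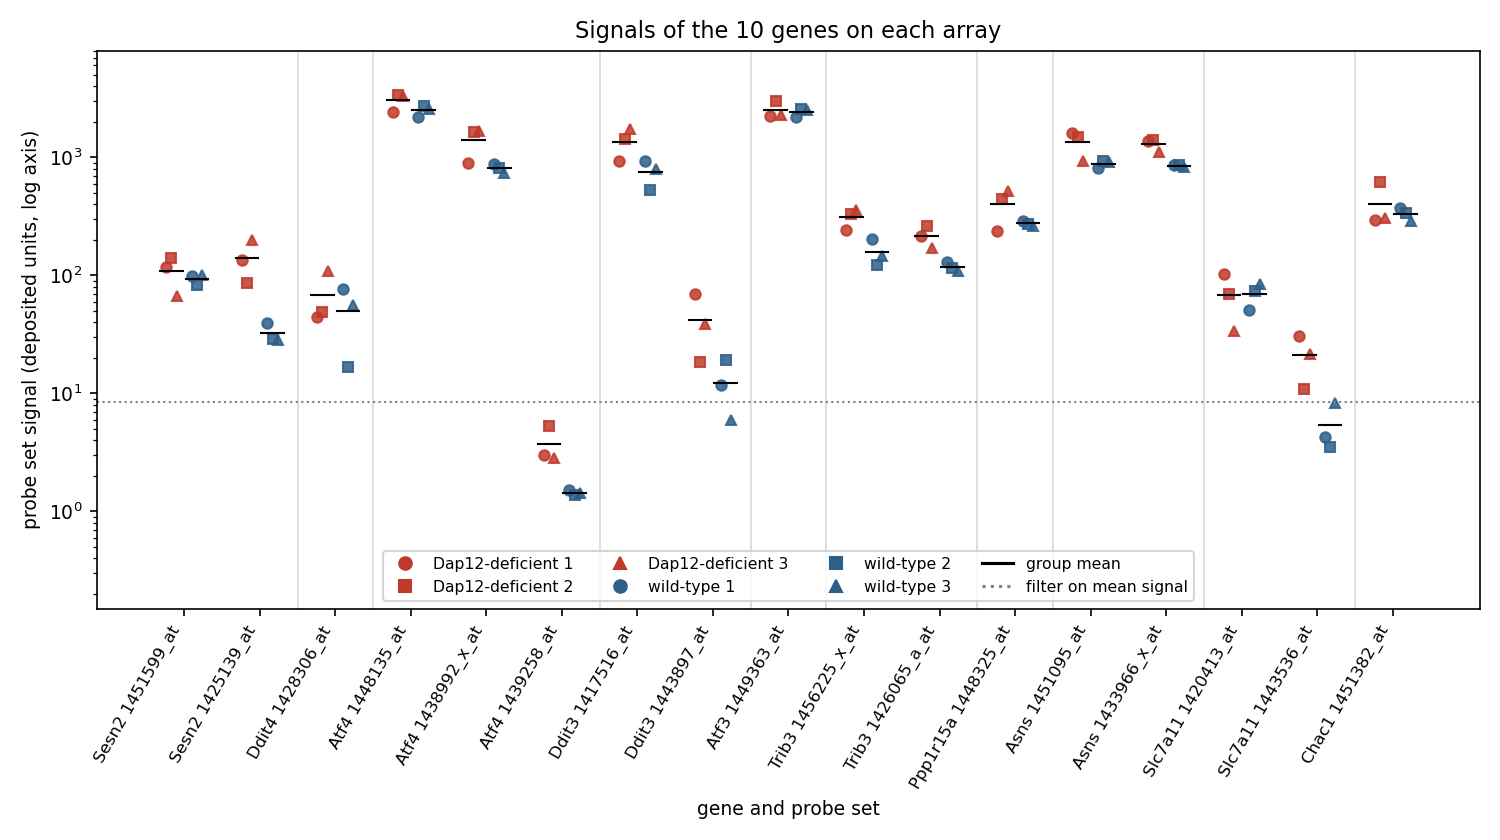
Signal of each probe set on each array. The y axis is the deposited signal on a log axis, red symbols on the left of each pair are the 3 Dap12-deficient arrays, blue symbols on the right the 3 wild-type arrays, black bars are group means, and the dotted line is the filter on the mean signal, 8.51. The second probe set of Sesn2 separates the groups, with 86.4 to 199 in Dap12-deficient and 28.5 to 39.7 in wild-type cultures, while the first overlaps.

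Sesn2 encodes sestrin 2, a leucine sensor that restrains mTORC1 when amino acids run short, and its 2 probe sets, which share 1 accession in the annotation, gave unlike results. Probe set 1425139_at had signals of 134, 86.4 and 199 on Dap12-deficient arrays 1, 2 and 3, against 39.7, 29.2 and 28.5 on wild-type arrays. Every Dap12-deficient array was above the highest wild-type array, and array 3 was the highest of all. Means were 139.9 ± 56.7 in Dap12-deficient and 32.5 ± 6.29 in wild-type cultures (SD, n = 3 each), a 4.31-fold ratio of means and a log2 difference of 1.63 (SE 0.27). Probe set 1451599_at, the brighter of both by its mean over all arrays, had 117, 140.2 and 66.9 on Dap12-deficient arrays, against 98.2, 82.2 and 100.1 on wild-type arrays. Here the groups overlapped and Dap12-deficient array 3, highest by the other probe set, was the lowest of the 6, with a log2 difference of 0.14 (SE 0.25). The difference by 1425139_at stayed above 0 under 16 alternatives (1.04 to 2.47), and its limma adjusted p fell under 0.05 in 1 of them, without Dap12-deficient replicate 2 (1.90, adjusted p = 0.0224, with a range of 0.0224 to 0.664 over the alternatives). In that setting 172 of the 27022 probe sets passed, 156 of them higher, and the array left out is the lowest Dap12-deficient one for 1425139_at. The difference by 1451599_at turned to -0.054 without that replicate, to -0.085 with a common median and to -1.17 with a term for Y-linked genes. Which of both follows the Sesn2 transcript more closely was not tested.

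The genes most like Sesn2 over the 6 arrays were named for each Sesn2 probe set, as a description. They are the highest among 12875 tested genes over only 6 arrays, and how high such values run by chance was not tested. With 1451599_at the highest Pearson correlations were those of Nphs1 (0.994), D430020J02Rik (0.9898), Hoxb3 (0.987), Birc6 (0.986) and Syt1 (0.970). Of these, Nphs1 (3.68 to 15.5), D430020J02Rik (5.03 to 20.0), Hoxb3 (5.22 to 24.3) and Syt1 (11.5 to 15.8) had dim signals. With 1425139_at, looked up after its values were seen, the highest correlations were those of Gla (0.998), Angpt2 (0.998), Zfp729b (0.998), Ttbk1 (0.994) and Hsd17b1 (0.993). Ttbk1 was also dim, with 13.9 to 25.3. The other sestrin genes are given for comparison. Sesn1, a sestrin under p53, had 364, 465 and 278 on Dap12-deficient arrays against 574, 459 and 449.6 on wild-type arrays (log2 difference -0.43, SE 0.22). Sesn3, a sestrin under FoxO factors, had 115, 89.1 and 199 against 108, 64.9 and 102 (0.44, SE 0.28). Both overlapped between the groups.

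Ddit4, also known as REDD1, restrains mTORC1 through the TSC complex and is induced by hypoxia and glucocorticoids as well as by ATF4. Its only probe set had 44.1, 49.2 and 109.9 on Dap12-deficient arrays 1, 2 and 3, against 76.0, 16.6 and 56.7 on wild-type arrays. The groups overlapped, array 3 was the high one among the Dap12-deficient and array 2 the low one among the wild-type cultures. The log2 difference was 0.39 (SE 0.39), and it turned to -0.049 without wild-type replicate 2. Means were 67.7 ± 36.6 in Dap12-deficient and 49.8 ± 30.3 in wild-type cultures (SD, n = 3 each).

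Atf4, which encodes the central transcription factor of the response, was among the brightest members, and its probe sets differed in the size of their difference. Probe set 1448135_at had 2411, 3399 and 3338 on Dap12-deficient arrays 1, 2 and 3, against 2211, 2745 and 2567 on wild-type arrays. Arrays 2 and 3 were above all wild-type arrays and array 1 was not, and the log2 difference was 0.27 (SE 0.19). Probe set 1438992_x_at had 896, 1635 and 1670.3 against 871, 817 and 739, without overlap but with array 1 close to the wild-type arrays, and a log2 difference of 0.73 (SE 0.25). The suffix x marks probe sets whose probes may also bind other transcripts. The third probe set, 1439258_at, was too dim for the test, with 2.99, 5.29 and 2.83 against 1.53, 1.37 and 1.43.

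Ddit3 encodes CHOP, a C/EBP family factor that acts downstream of ATF4 and promotes cell death under lasting stress. Its bright probe set 1417516_at had 937.2, 1423 and 1725 on Dap12-deficient arrays 1, 2 and 3, against 936.7, 533 and 800.2 on wild-type arrays. The groups were separate by a hair, since Dap12-deficient array 1 and wild-type array 1 were nearly equal, and the log2 difference was 0.83 (SE 0.27). Means were 1362 ± 398 in Dap12-deficient and 757 ± 205 in wild-type cultures (SD, n = 3 each). The dim probe set 1443897_at had 69.3, 18.4 and 38.4 against 11.9, 19.2 and 5.97, with array 1 the highest instead of the lowest of the Dap12-deficient arrays. Its groups overlapped, and its log2 difference was 0.96 (SE 0.31).

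Atf3, a stress-induced repressor of inflammatory genes in macrophages, was bright and near equal in both groups. Its probe set had 2256, 3027 and 2278 on Dap12-deficient arrays 1, 2 and 3, against 2184, 2553 and 2509 on wild-type arrays. Array 2 was the highest of the 6 and the other Dap12-deficient arrays lay among the wild-type ones. The log2 difference was 0.05 (SE 0.18), and its sign changed with a common median (-0.20), without Dap12-deficient replicate 2 (-0.087) and without wild-type replicate 1 (-0.019).

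The feedback genes of the response were Trib3 and Ppp1r15a. Trib3 encodes a pseudokinase that binds ATF4 and CHOP and damps their activity, and both of its probe sets separated the groups. Probe set 1456225_x_at had 243, 333 and 355 on Dap12-deficient arrays 1, 2 and 3, against 204, 123 and 147 on wild-type arrays (log2 difference 0.92, SE 0.24). Probe set 1426065_a_at had 214, 263 and 169.7 against 129.8, 114.5 and 109.98 (0.77, SE 0.21). Among the members with 2 or more tested probe sets, Trib3 and Asns were those in which every one separated the groups. The ratio of means was 1.96 and 1.83 by these probe sets. Both differences stayed above 0 under all 16 alternatives. With a term for Y-linked genes, that of 1426065_a_at came down to 0.06 and that of 1456225_x_at rose to 1.55.

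Ppp1r15a encodes GADD34, the regulatory subunit that directs a phosphatase to eIF2 and so restores protein synthesis. Its probe set had 237, 443 and 523 on Dap12-deficient arrays 1, 2 and 3, against 288, 273 and 264 on wild-type arrays. Arrays 2 and 3 lay well above all wild-type arrays, but array 1 lay below them, and the log2 difference was 0.45 (SE 0.27). Its paralog Ppp1r15b, which serves the same phosphatase without stress, had 1114, 1001 and 907 against 906, 896 and 929 (0.14, SE 0.17).

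Asns encodes asparagine synthetase, a gene on which the amino acid response was worked out. Probe set 1451095_at had 1623, 1477 and 935 on Dap12-deficient arrays 1, 2 and 3, against 809, 930.1 and 910.4 on wild-type arrays. Arrays 1 and 2 stood well above the wild-type arrays, while array 3 exceeded the highest of them only slightly, and the log2 difference was 0.56 (SE 0.23). Probe set 1433966_x_at had 1385, 1409 and 1109.8 against 861, 863 and 834 (0.59, SE 0.18). Its means were 1301 ± 166 in Dap12-deficient and 853 ± 15.97 in wild-type cultures (SD, n = 3 each), a ratio of 1.53, and all 3 Dap12-deficient arrays lay above the wild-type arrays. With a term for Y-linked genes the differences of these probe sets turned to -0.77 and -0.0070. The same term raised other members, among them Ppp1r15a to 2.30 and Ddit4 to 1.98. Nothing is read from these values, since the Y-linked signals do not overlap between the groups.

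Slc7a11 encodes xCT, which imports cystine in exchange for glutamate and is also a target of NRF2. Its brighter probe set 1420413_at had 102.5, 69.3 and 33.7 on Dap12-deficient arrays 1, 2 and 3, against 50.9, 74.5 and 84.2 on wild-type arrays. These signals overlapped, with the highest and the lowest of the 6 both in Dap12-deficient cultures, and the log2 difference was -0.09 (SE 0.31). Probe set 1443536_at was dim, with 30.8, 10.98 and 21.6 against 4.31, 3.53 and 8.34, without overlap and with a log2 difference of 0.77 (SE 0.23). The difference of the brighter probe set ranged from -0.38 to 0.25 as single arrays were left out and was -2.04 with a term for Y-linked genes. Slc3a2, which encodes the heavy chain that pairs with xCT, had 2192, 3390 and 3154 against 2524, 2489 and 2341 (0.22, SE 0.20).

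Chac1 encodes an enzyme that degrades glutathione and is a sensitive transcript of the ATF4 branch. Its probe set had 292, 621 and 304 on Dap12-deficient arrays 1, 2 and 3, against 371, 338 and 289 on wild-type arrays. Array 2 stood apart as the high one and the other Dap12-deficient arrays lay within the wild-type range, with a log2 difference of 0.20 (SE 0.28). Without Dap12-deficient replicate 2 the difference was -0.14, and with a common median it was -0.046. The paralog Chac2 had 77.9, 46.8 and 56.5 against 48.1, 63.2 and 89.2 (-0.11, SE 0.24).

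The members did not move as 1 block among the Dap12-deficient cultures. Of the 16 tested probe sets, 8 had their lowest Dap12-deficient signal on array 1, 3 on array 2 and 5 on array 3, and 4, 6 and 6 had their highest there. Array 1 was the low one for the bright probe sets of Atf4, Ddit3, Atf3 and Trib3 and for Ppp1r15a, Chac1 and Ddit4. Array 3 was the low one for both probe sets of Asns, for the brighter ones of Sesn2 and Slc7a11 and for 1 of Trib3. The median deviation of the 10 genes from the wild-type mean, by the brightest probe set, was 0.14, 0.59 and 0.25 on Dap12-deficient arrays 1, 2 and 3, and 0.07, 0.01 and 0.05 on the wild-type arrays. Over all tested genes it lay between -0.05 and 0.03 on the 6 arrays. Dap12-deficient array 2 had the highest summed microglia markers of its group (30780) and the lowest summed astrocyte markers (451), and array 3 the lowest (22627) and the highest (1408).

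**Figure D3:**
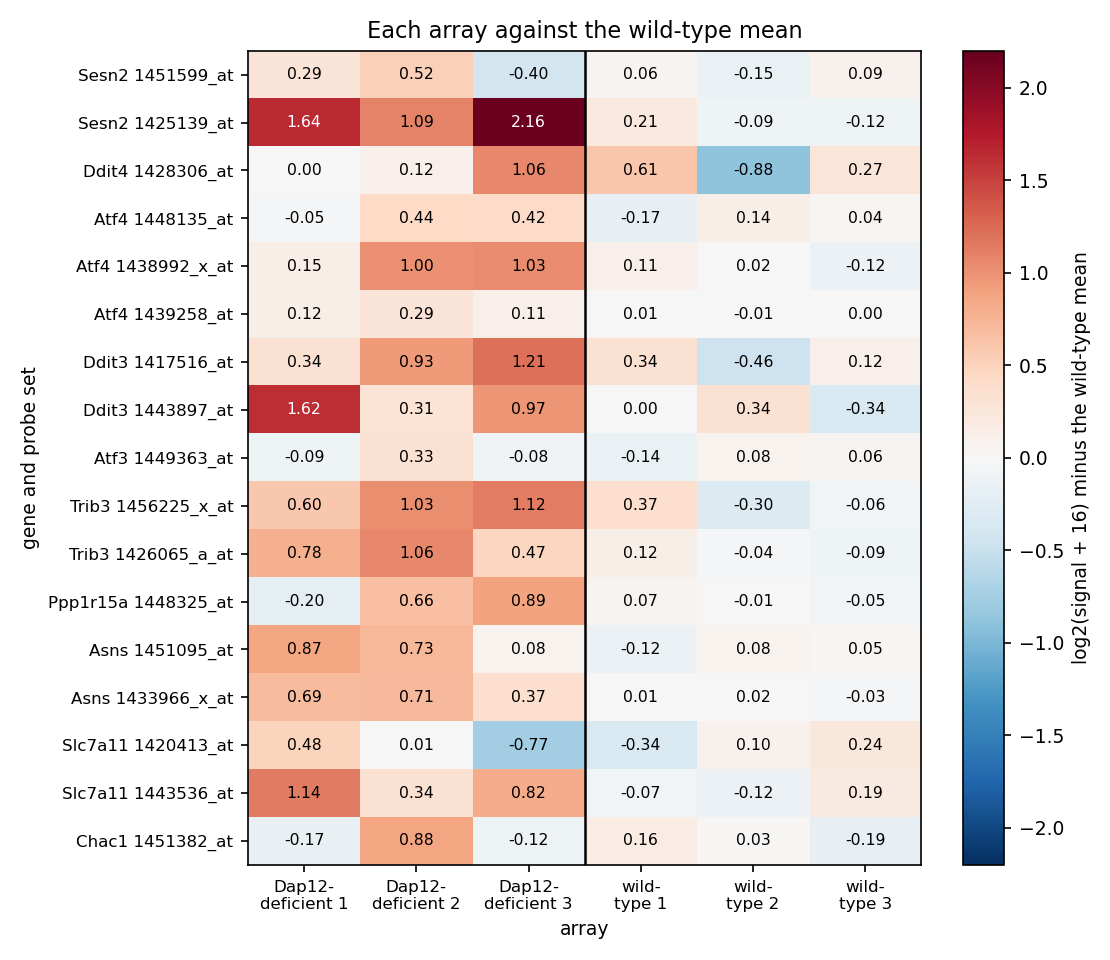
Deviation of each array from the wild-type mean for each probe set, as log2(signal + 16). Rows are gene and probe set, columns are the 3 Dap12-deficient arrays and then the 3 wild-type arrays, red is above and blue below the wild-type mean. Probe set 1425139_at of Sesn2 stands at 1.64, 1.09 and 2.16 on the Dap12-deficient arrays, while Ppp1r15a stands at -0.20, 0.66 and 0.89 and the brighter probe set of Asns at 0.87, 0.73 and 0.08.

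Other genes of the pathway were taken from lists by role, each gene by its brightest tested probe set. Some genes stood in several lists, such as Pmaip1 among p53 targets and among targets of ATF4 and CHOP. Counts and medians of different lists are therefore not independent. Together the lists held 215 tested genes other than the members, of which 0 passed limma's adjusted p in either direction, beside 0.0155% of all 12875 genes. At an unadjusted p under 0.05 there were 21 of the 215 higher and 8 lower, beside 4.76% higher and 4.87% lower of all genes. Nothing is read from these counts, since the lists were drawn up with earlier results of these data known. The median difference of these 215 genes was 0.0036. Without Dap12-deficient replicate 2, 1 of them passed, Bcl2l11, which encodes the cell death protein BIM, in a setting where 172 of all tested probe sets did. Bcl2l11 read 2032, 725 and 1641 on Dap12-deficient arrays 1, 2 and 3, against 687, 774 and 579 on wild-type arrays, so that the array left out is the one that lay among the wild-type arrays. Its other probe sets gave -0.04, 0.02, 0.22 and 0.16.

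Among 23 genes of the eIF2 kinases, of eIF2 and eIF2B subunits and of their regulators, 12 were higher and 11 lower in Dap12-deficient cultures. Their median was 0.0033. Eif2s3x, the X-linked gene of the eIF2 gamma subunit, had 1864, 675 and 1003 on Dap12-deficient arrays against 199, 482 and 432 on wild-type arrays (log2 difference 1.60, SE 0.39), and its other probe sets gave 0.19 and 1.69. Its Y-linked counterpart Eif2s3y had 64.5, 141 and 176 against 612, 571 and 649, and the part of the animals' sex in the Eif2s3x difference was not tested. Impact, which restrains the kinase GCN2, had 1945, 2394 and 2061 against 1254, 1394 and 1282 (0.69, SE 0.17), and its other probe set gave 0.81. Gcn1, an activator of GCN2, had 11.04, 35.1 and 24.7 against 37.8, 76.6 and 50.2 (-0.85, SE 0.28), but 0.20 by its other probe set. The kinases lay closer to 0, with -0.05 for Eif2ak1 (HRI), 0.34 for Eif2ak2 (PKR), 0.14 for Eif2ak3 (PERK) and -0.11 for Eif2ak4 (GCN2).

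Of 16 genes of amino acid and one-carbon synthesis, 12 were higher and 4 lower, with a median of 0.11. Cth, which makes cysteine, had 49.2, 36.9 and 44.6 on Dap12-deficient arrays against 20.6, 16.4 and 21.7 on wild-type arrays (0.74, SE 0.19). The serine pathway genes Shmt2 and Phgdh had 0.41 (SE 0.23) and 0.37 (SE 0.26), with overlap. Of 16 amino acid transporters, 12 were higher and 4 lower, with a median of 0.21. With a common median these medians turned to -0.12 for synthesis and -0.04 for transporters. Slc7a5, the light chain of the leucine transporter LAT1, had 388, 210.4 and 163 against 75.7, 109 and 74.1 (1.33, SE 0.29). The glutamine transporter Slc38a2 had 3762, 3506 and 3645 against 2578, 2530.3 and 2905 (0.45, SE 0.16), and the arginine and lysine transporter Slc7a1 had 2320.5, 1874 and 1664 against 1366, 1217 and 1495 (0.51, SE 0.19). These 3 transporters did not overlap between the groups, but the other probe sets of Slc38a2 gave -0.11 and 0.03. Of 19 genes of the aminoacyl-tRNA synthetase list, 9 were higher and 10 lower, with a median of -0.02. The serine enzyme Sars had 756, 921 and 907 against 554, 591 and 609.6 (0.54, SE 0.18), Aars, for alanine, 0.37 (SE 0.20) and Iars, for isoleucine, 0.32 (SE 0.19).

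Among 25 other known targets of ATF4 and CHOP, 17 were higher and 8 lower, with a median of 0.27, which was 0.02 with a common median. At an unadjusted p under 0.05 there were 8 higher and 0 lower, beside 4.76% higher and 4.87% lower of all genes, and nothing is read from this, since the list was drawn up with these results known. Cebpb, a C/EBP factor that pairs with ATF4, had 901, 792 and 985 on Dap12-deficient arrays against 358, 642 and 620.4 on wild-type arrays (0.75, SE 0.24). Nupr1, a stress-induced chromatin protein, had 754, 937 and 1075 against 613, 602 and 583 (0.59, SE 0.19). The third of the list was Sars, given with the synthetases. From the 8 lower ones, Atf5 had a log2 difference of -0.0033, Cebpg -0.04, Vldlr -0.14 and Eif4ebp1 -0.27. Other probe sets gave 0.14 and 0.34 for Cebpg and -0.10 and 0.23 for Eif4ebp1. Those of Vldlr gave 0.08, -0.04, 0.91 and -0.11. The list of ATF, CREB and C/EBP factors and Tribbles paralogs also held Ddit4l and Ppp1r15b, paralogs of other members. Of its 22 genes, 15 were higher and 7 lower, with a median of 0.16 (-0.06 with a common median). Crem, a cyclic AMP responsive factor, had 0.74 (SE 0.33), with 1303 on Dap12-deficient array 3 and 359 to 501 on the other 5 arrays. Cebpa, a myeloid lineage factor, had -0.41 (SE 0.23). The Tribbles paralogs Trib1 and Trib2 had 0.30 (SE 0.21) and 0.31 (SE 0.20).

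The chaperone arms of the unfolded protein response had a median on the other side of 0. Of 28 genes, 8 were higher and 20 lower, with a median of -0.14, beside -0.03 over all tested genes. The list median ranged from -0.39 to -0.03 over the main fit and its alternatives. Creld2, an endoplasmic reticulum protein induced by ATF6, had 248, 281 and 271 on Dap12-deficient arrays against 417, 363 and 403 on wild-type arrays (-0.54, SE 0.18). The cochaperone Dnajb11 had 203, 514 and 235 against 584, 441 and 566 (-0.82, SE 0.31), and Edem2, which directs misfolded glycoproteins to degradation, 36.4, 133 and 138 against 187, 161 and 177 (-0.84, SE 0.36). Hspa5, the main chaperone BiP, had 3612, 5706 and 4993 against 5628, 4481 and 5393 (-0.13, SE 0.20), and its other probe sets gave 0.04 and 0.06. Dap12-deficient array 1 was the lowest of the 6 for all 4 of these genes.

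Of 31 genes of amino acid sensing by mTORC1, 14 were higher and 17 lower, with a median of -0.0077. Flcn, which acts on the Rag proteins, had 1903, 2956 and 3434 on Dap12-deficient arrays against 1311, 1692 and 1779 on wild-type arrays (0.76, SE 0.24), and Rragd, 1 of those Rag proteins, 1249, 1222 and 1195 against 1044, 593 and 794 (0.62, SE 0.22). Other probe sets gave 1.025 and 0.68 for Flcn and 0.17 and 0.33 for Rragd. Of 22 genes of NRF2 and glutathione, 12 were higher and 10 lower, with a median of 0.01. Mafk and Maff, small partners of NRF2, had 0.61 (SE 0.22) and 0.52 (SE 0.20), and the autophagy receptor Sqstm1 0.47 (SE 0.20), each without overlap. Gpx4, Srxn1 and Ggct were lower without overlap, with -0.64 (SE 0.29), -0.38 (SE 0.20) and -0.24 (SE 0.18). Other probe sets gave -0.73 for Gpx4, 0.36 for Ggct and -0.55, 0.21 and -0.32 for Srxn1. Hmox1, a main NRF2 target, had 0.0098 (SE 0.28). Nfe2l2, the gene of NRF2, had -0.09 (SE 0.22), but 0.30 by its other probe set.

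Sesn2 and Ddit4 also answer to p53 and to hypoxia, so these lists were set beside them. Of 18 p53 targets, 10 were higher and 8 lower, with a median of 0.06 (-0.16 with a common median). Mdm2, the ubiquitin ligase that restrains p53, had 1408, 2118 and 2407 on Dap12-deficient arrays against 1111, 657 and 822 on wild-type arrays (1.18, SE 0.25), the DNA polymerase Polk 75.9, 56.5 and 93.6 against 40.1, 44.6 and 40.8 (0.64, SE 0.21), and the death gene Pmaip1 597, 422 and 591 against 113, 256 and 438 (1.12, SE 0.38). The p53 target Cdkn1a, a cell cycle inhibitor, had -0.29 (SE 0.28). Other probe sets gave 1.60 for Mdm2, 0.18 for Polk and 0.20 for Cdkn1a. Of 16 hypoxia-inducible genes, 4 were higher and 12 lower, with a median of -0.23. Egln3, Bnip3 and Ankrd37, a prolyl hydroxylase, a mitophagy receptor and an ankyrin protein, had -1.46 (SE 0.23), -1.02 (SE 0.21) and -0.59 (SE 0.22), each lower on all Dap12-deficient arrays. The other probe set of Egln3 gave -0.59. Among the 4 higher genes, Kdm3a had 0.48 (SE 0.22), without overlap. Vegfa had 0.54 (SE 0.24), with overlap, and 0.0047 by its other probe set. None of these genes passed limma's adjusted p with all 6 arrays.

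**Figure D4:**
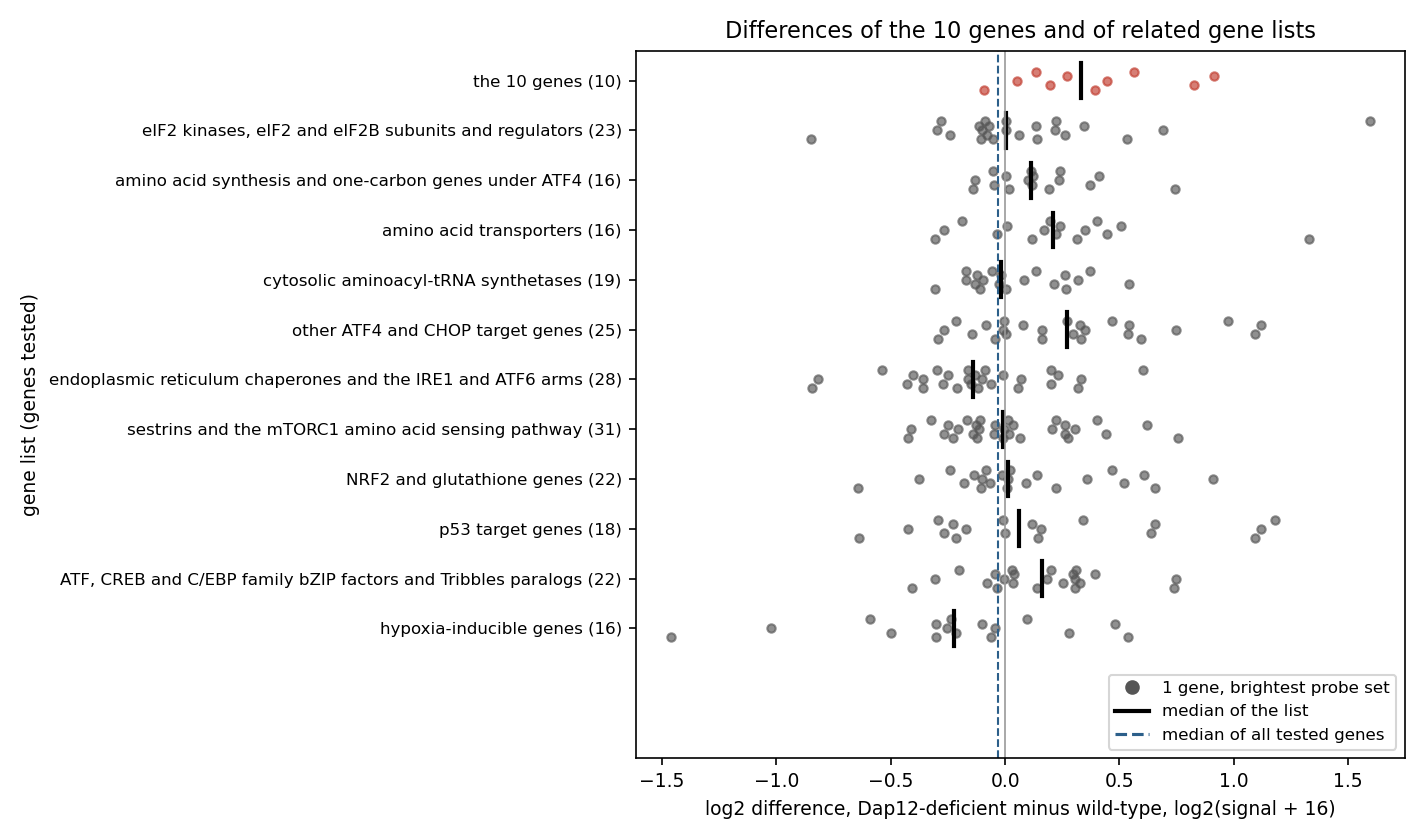
Log2 difference of each gene in the 10 genes and in the related lists. Some genes stand in several lists. The x axis is Dap12-deficient minus wild-type on the scale of log2(signal + 16), each row is a list with the number of genes tested, each dot is 1 gene by its brightest probe set, black bars are list medians and the dashed line is the median of all tested genes, -0.03. The 10 genes have a median of 0.33, other ATF4 and CHOP targets 0.27, chaperones -0.14 and hypoxia-inducible genes -0.23.

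Scaling bears on every sign near 0. With each array scaled to a common median, the median of all tested genes was -0.23 instead of -0.03 and that of the 10 genes 0.10 instead of 0.33. Relative to all genes the 10 genes then stood at 0.34, against 0.36 with signals as deposited. The share of higher signals among probe sets with an unadjusted p under 0.05 was 66.1% as deposited and 20.0% with a common median. Relative to all genes the median of the 10 genes was 0.26 to 0.62 under the alternatives that take the brightest probe set, with the highest value under a term for Y-linked genes.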

How the data were processed

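RNA of the 6 samples was isolated by Trizol followed by RNeasy, then biotin-labelled with a kit that amplifies it repeatedly, per the labels' protocols, and each sample was hybridised to an array. The deposited values are linear probe set intensities, and the submitters' processing notes name GCOS without a version. The mean after leaving out the lowest and highest 2% was 100.0 on each array, so the arrays had been scaled to 1 target. Probe sets were named from the platform annotation. Of 45101, 64 controls were left out. A pseudocount of 16 was added before log2, and probe sets at or above the 40th percentile of mean signal (8.51) were tested, 27022 in all, with limma 3.58.1 in R 4.3.3 (lmFit, eBayes with trend, two-sided, no covariate, adjusted p under 0.05). Values were shared between arrays at 0 probe sets. Arrays are numbered by accession within a group and pair nothing.

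The members, gene lists and tests were chosen with earlier results of these data known. Named genes were all members, the 3 of each list with the smallest p, and the 5 most like the brightest Sesn2 probe set. Further ones (paralogs, partners, the eIF2 kinases, Bcl2l11, Atf5, Cebpg, Vldlr, Eif4ebp1, Hspa5, Hmox1, Nfe2l2, Gpx4, Srxn1, Ggct, Kdm3a, Vegfa and Cdkn1a) were added outside that rule. List genes that no single-symbol probe set names were not analysed here. The fit was repeated with a pseudocount of 1 or 64, with quantile-normalized signals, with arrays brought to a common median, with no filter or a 60th percentile filter, a robust prior, array weights, a term for single or double title numbers, a sex term (the averaged log2 signals of the Y-linked Kdm5d, Uty and Eif2s3y) and without each array, and gene values were also averaged over a gene's probe sets. The fit was tested on simulated data with independent noise at each probe set. These had no array, scaling, sex or cell type effects, so that test does not cover them. Promoter sequences are RefSeq's (GRCm38.p6). Python 3.11.15 and matplotlib 3.10.9 made the plots.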

Additional observations from a re-analysis of the deposited data

How the results depend on the processing

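With 3 arrays per group the number of arrays limits the precision, and detection calls were not used here, so dim probe sets may be near background. Probe sets past the threshold numbered 2, and 5 with a common median, 4 with array weights, and 2 to 172 as single arrays were left out, with 15 without Dap12-deficient replicate 1 and 172 without Dap12-deficient replicate 2. Genes of the related lists past it numbered 0, and 0 to 1 as single arrays were left out. The median of the 10 genes was 0.33, and 0.10 with a common median, 0.68 with the sex term and 0.26 to 0.42 as single arrays were left out. The Y-linked signals behind the sex term did not overlap between the groups, which leaves little to estimate the difference from. Signs turned with a common median for Atf3 (-0.20), Chac1 (-0.046) and Sesn2 1451599_at (-0.085), and with the sex term for Asns (-0.77 and -0.0070), Ddit3 1443897_at (-0.18) and Sesn2 1451599_at (-1.17). The sex term also took Slc7a11 1420413_at to -2.04 and raised Ppp1r15a to 2.30, Ddit4 to 1.98, Atf4 to 2.16 (1438992_x_at) and 1.205 (1448135_at), Ddit3 1417516_at to 2.16, Sesn2 1425139_at to 2.47 and Trib3 1456225_x_at to 1.55. As single arrays were left out, Atf3 ranged from -0.087 to 0.12, Chac1 from -0.14 to 0.38, Ddit4 from -0.049 to 0.70, Sesn2 1451599_at from -0.054 to 0.40 and Slc7a11 1420413_at from -0.38 to 0.25. The causes were not tested. Of 255 values of member probe sets under alternatives, 240 kept their sign and their side of the threshold, 14 changed sign and 1 newly passed, Sesn2 1425139_at. The list with the highest median varied: other ATF4 and CHOP targets as deposited, amino acid transporters with quantile normalization, and amino acid synthesis with the sex term. With a common median the medians turned to -0.12 (amino acid synthesis), -0.04 (transporters) and -0.16 (p53 targets). Those of the other lists named here turned to -0.06 (ATF, CREB and C/EBP factors with paralogs of members), -0.24 (eIF2 genes and regulators) and -0.23 (NRF2 genes). List medians moved by more than the spread between arrays in 32 of 187 cases. No paired analysis was possible because the numbers only follow the order of deposit.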
